A study of Mus musculus with 4 samples.

Results

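The cochleovestibular ganglion (CVG) is the cluster of young sensory neurons beside the embryonic inner ear, and it later splits into the spiral ganglion of the cochlea and the vestibular ganglion. RNA from a CVG library of the genotype label DKO was compared with RNA from a CVG library of the genotype label control, both from mouse embryos of embryonic day 11.5. The label DKO was read as loss of both Isl1 and Pou4f1, and the series held 2 further genotype labels, Isl1CKO (read as a conditional Isl1 knockout) and Pou4f1KO (read as a Pou4f1 knockout), again with 1 library each. The driver of the Isl1 deletion, the alleles carried by the control, the strain and the number of embryos behind a library are not given in the sources used here. A gene was compared if its level reached 1 TPM in the DKO or the control library. TPM is transcripts per 1000000, a level scaled for gene length and for the library total. Of 25239 gene symbols in the deposited tables, 14773 were compared.

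ISL1 belongs to the LIM-homeodomain family of transcription factors, and POU4F1, also called BRN3A, to the POU family. Both are made in newly born sensory neurons of the cranial and dorsal root ganglia, where they are known to shut down early neurogenic programmes and to switch on genes of the mature sensory neuron, among them neurotrophin receptors. In the ear, neuroblasts leave the otic epithelium under control of NEUROG1 and NEUROD1, gather in the CVG and then grow axons to the sensory patches and to the hindbrain. The comparison of DKO with control asks which ganglion genes differ between embryos labelled as lacking both factors and control embryos.

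Each genotype was 1 library, so every value below is a size with no replicate check, and no p-value was computed. A difference is given as the log2 ratio of (TPM + 1) in DKO over control, and a gene is called higher or lower where that ratio is at least 1 in size, that is 2-fold. The depth was similar, with 16.1 gigabases of aligned sequence for DKO and 16.6 gigabases for control. At the commonest ratio of coverage to level, a gene at 1 TPM was covered 5.82 times in DKO and 5.93 times in control. That ratio held for 56.1% of the genes used for it in DKO and 55.9% in control, and some genes were covered less at their TPM. Summed levels of general neuronal genes were 25477 TPM in DKO and 24173 TPM in control over the 30 genes of a pan-neuronal list, so both libraries carry the RNA of neurons that the label names. Xist, made from the inactive X chromosome, stood at 127 TPM in DKO and 128 TPM in control, and the Y-linked Ddx3y at 17.0 and 20.2 TPM in the same order, so each library held RNA of both sexes.

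The targeted genes were read first. Pou4f1 (mm10 chr14:104462325-104467999, minus strand, up to 3 exons) had 14.6 TPM in DKO, 188 in Isl1CKO, 16.6 in Pou4f1KO and 146 in control. Its level was low in both libraries read as Pou4f1 knockouts, and the log2 ratio of DKO over control was -3.23. Isl1 (chr13:116298270-116309688, minus strand, up to 6 exons) had 579 TPM in DKO, 854 in Isl1CKO, 340 in Pou4f1KO and 450 in control. The Isl1 level was thus not lower but higher in the library labelled DKO than in the control, with a log2 ratio of 0.36, which goes against a reading of the label as loss of Isl1 RNA. The deposited tables give no values by exon and the allele is not described in the sources used here, so these data do not show whether ISL1 was lost. The library is therefore the library labelled DKO throughout, and DKO standing alone refers to that label.

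Across all compared genes, 152 (1.03%) were at least 2-fold higher and 352 (2.38%) at least 2-fold lower in the library labelled DKO. These shares are the background for the counts of called genes in every list below. The median log2 ratio was -0.01, with 7158 genes above 0 and 7615 below. Lower genes outnumbered higher ones at each larger size too. Past 3-fold there were 36 higher and 114 lower genes, past 4-fold 18 higher and 52 lower, and past 8-fold 2 higher and 5 lower. The 5 include Pou4f1 itself and Rpl26, a row that overlaps another and is set aside below. Of the called genes, 113 of the higher and 308 of the lower were protein coding in the GENCODE release M21 annotation. In bulk tissue, fewer cells of a type and less RNA per cell cannot be told apart.

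The share of genes called was smaller among more abundant genes. Among 3071 genes with a mean of both libraries under 5 TPM, 2.54% were higher and 5.28% lower. Among 2025 genes with a mean of at least 100 TPM, 0.198% were higher and 0.444% lower. The median size of the log2 ratio was 0.27 in the low group and 0.08 in the abundant group, so calls on genes of a few TPM stand on a wider general scatter. Of the compared genes, 361 reached 1 TPM in DKO only and 418 in control only. At the edge of the filter, Cracr2a with 0.932 TPM in DKO and 1.0004 TPM in control was just inside, and H4c14 with 0.999 TPM in DKO and 0.921 TPM in control was just outside.

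**Figure D1:**
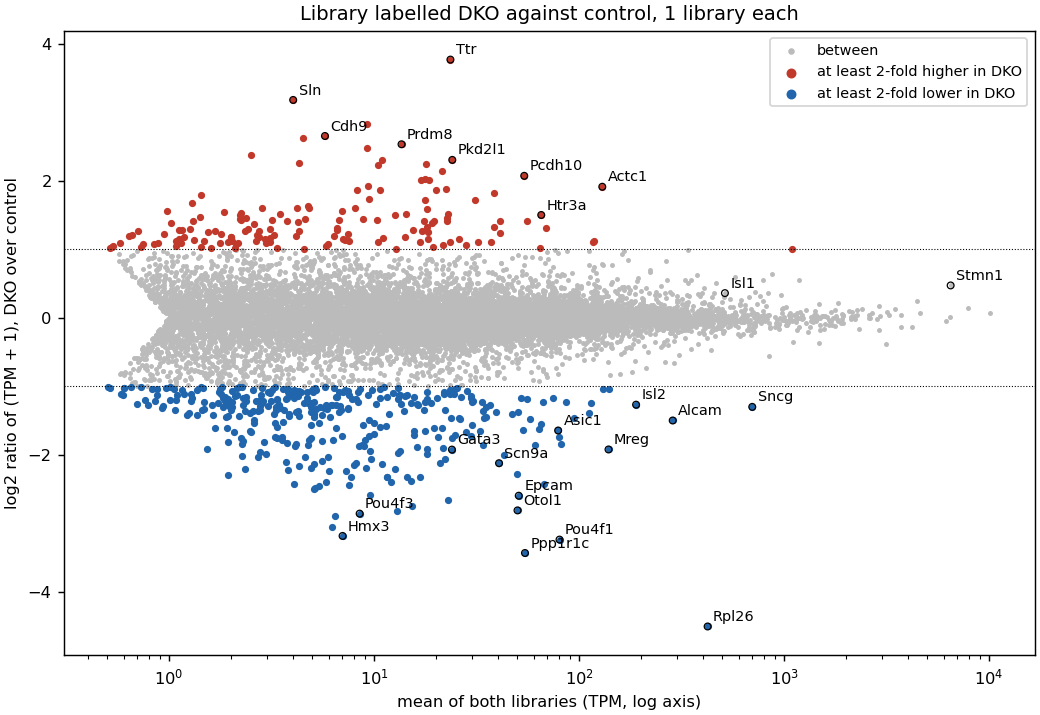
Each point is 1 of the 14773 compared genes, placed by the mean of its level in the library labelled DKO and the control library (x axis, TPM, log axis) and its log2 ratio of (TPM + 1), DKO over control (y axis); dotted lines mark 2-fold. Red points are the 152 higher and blue points the 352 lower genes, and named genes are circled; Rpl26, the lowest point, overlaps another row.

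The lowest point of that plot was Rpl26, a ribosomal protein gene with 34.9 TPM in DKO and 812 TPM in control, a log2 ratio of -4.50. Its span is shared on the same strand by Gm15772, which had 1462 TPM in DKO and 725 TPM in control, and the log2 ratio of the sum of both rows was -0.04. The 2 rows lay on opposite sides of 0 and their sum near 0, so Rpl26 is not counted among the extremes described next.

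Of the named genes at 5 TPM or more, the lowest ratio belonged to Ppp1r1c, which encodes an inhibitor subunit of protein phosphatase 1 (chr2:79707780-79818546, plus strand). It had 8.42 TPM in DKO, 70.9 in Isl1CKO, 22.7 in Pou4f1KO and 100.5 in control, a log2 ratio of -3.43. DKO was the lowest of the 4 libraries, 11.9-fold below control. Hmx3, a homeobox factor of the otic vesicle and vestibular system (chr7:131542963-131544931, plus strand), had 0.593 TPM in DKO, 8.30 in Isl1CKO, 2.79 in Pou4f1KO and 13.4 in control. Its log2 ratio was -3.18, and again the library labelled DKO was the lowest of the 4. Plekhd1, named for its pleckstrin homology domain, had 0.549 TPM in DKO, 10.02 in Isl1CKO, 0.673 in Pou4f1KO and 11.9 in control. Pou4f3, a close relative of Pou4f1 best known for hair cells, had 1.31 TPM in DKO, 16.7 in Isl1CKO, 1.29 in Pou4f1KO and 15.7 in control. Pappa2, a protease that cuts IGF-binding proteins, had 2.44 TPM in DKO, 22.2 in Isl1CKO, 2.03 in Pou4f1KO and 23.3 in control. For Plekhd1, Pou4f3 and Pappa2 the libraries labelled DKO and Pou4f1KO were both low, and the Isl1CKO library was close to control.

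Gnat3, the G protein alpha subunit gustducin of taste cells, had the opposite layout. It had 2.01 TPM in DKO, 2.12 in Isl1CKO, 14.6 in Pou4f1KO and 17.1 in control, so the libraries labelled DKO and Isl1CKO were low. Tafa2, a secreted chemokine-like protein of neurons, had 5.61 TPM in DKO, 29.8 in Isl1CKO, 15.5 in Pou4f1KO and 40.5 in control, lowest in DKO. Otol1, a collagen-like protein of the otoconia (the crystals over the vestibular sensory patches), had 11.8 TPM in DKO, 35.4 in Isl1CKO, 25.5 in Pou4f1KO and 88.4 in control. Epcam, an adhesion molecule of epithelia, had 13.7 TPM in DKO, 51.8 in Isl1CKO, 20.2 in Pou4f1KO and 87.8 in control. Otol1 and Epcam were lower in the other 3 libraries than in control and lowest in DKO. Prr15, Slc4a4 (a sodium bicarbonate cotransporter), Mettl11b, Ush1c (harmonin, a scaffold of hair cell stereocilia) and Cldn6 (a tight junction claudin) completed the 15 lowest, with log2 ratios from -2.74 for Prr15 to -2.43 for Cldn6.

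At the other end, Ttr, which encodes the thyroid hormone and retinol carrier transthyretin, had the highest ratio. It had 44.8 TPM in DKO, 7.92 in Isl1CKO, 8.22 in Pou4f1KO and 2.36 in control, a log2 ratio of 3.77 and the highest level in DKO. Sln, the sarcoplasmic reticulum calcium pump regulator sarcolipin, had 8.06 TPM in DKO, 5.09 in Isl1CKO and 0.0913 in Pou4f1KO and was listed at 0 in control, so no fold is given. Cdh9, a classical cadherin of neurons (chr15:16728915-16857138, plus strand), had 10.7 TPM in DKO, 2.55 in Isl1CKO, 5.49 in Pou4f1KO and 0.853 in control, a log2 ratio of 2.65. It was higher in the other 3 libraries than in control and highest in DKO. Sim1, a transcription factor of hypothalamic and spinal interneurons, had 8.44 TPM in DKO, 0.746 in Isl1CKO, 12.2 in Pou4f1KO and 0.538 in control. Prdm8, a histone methyltransferase family member of neurons, had 23.9 TPM in DKO, 20.7 in Isl1CKO, 3.45 in Pou4f1KO and 3.31 in control. Sim1 was thus high in DKO and Pou4f1KO, while Prdm8 was high in DKO and Isl1CKO.

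Nxph4, a neurexin ligand, had 16.4 TPM in DKO, 12.4 in Isl1CKO, 10.7 in Pou4f1KO and 2.13 in control, lowest in control. Pkd2l1, a polycystin family cation channel, had 40.7 TPM in DKO, 23.2 in Isl1CKO, 15.5 in Pou4f1KO and 7.44 in control. Scg2, a granin of dense-core vesicles, had 35.6 TPM in DKO, 9.92 in Isl1CKO, 28.5 in Pou4f1KO and 7.28 in control. Pkd2l1 was graded with DKO highest, and Scg2 was high in the 2 libraries read as Pou4f1 knockouts. Pcdh10, a protocadherin of axon tracts and the most abundant of the 15, had 87.9 TPM in DKO, 62.7 in Isl1CKO, 38.5 in Pou4f1KO and 20.1 in control. Lhx1, a LIM-homeodomain factor, and its antisense transcript Lhx1os had log2 ratios of 2.30 and 2.24. Lmo3 (a LIM-only transcriptional cofactor), Nexn (an actin-binding protein), Cyp26b1 (an enzyme that degrades retinoic acid) and Art5 (an ADP-ribosyltransferase) had log2 ratios between 2.02 for Art5 and 2.26 for Lmo3.

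**Figure D2:**
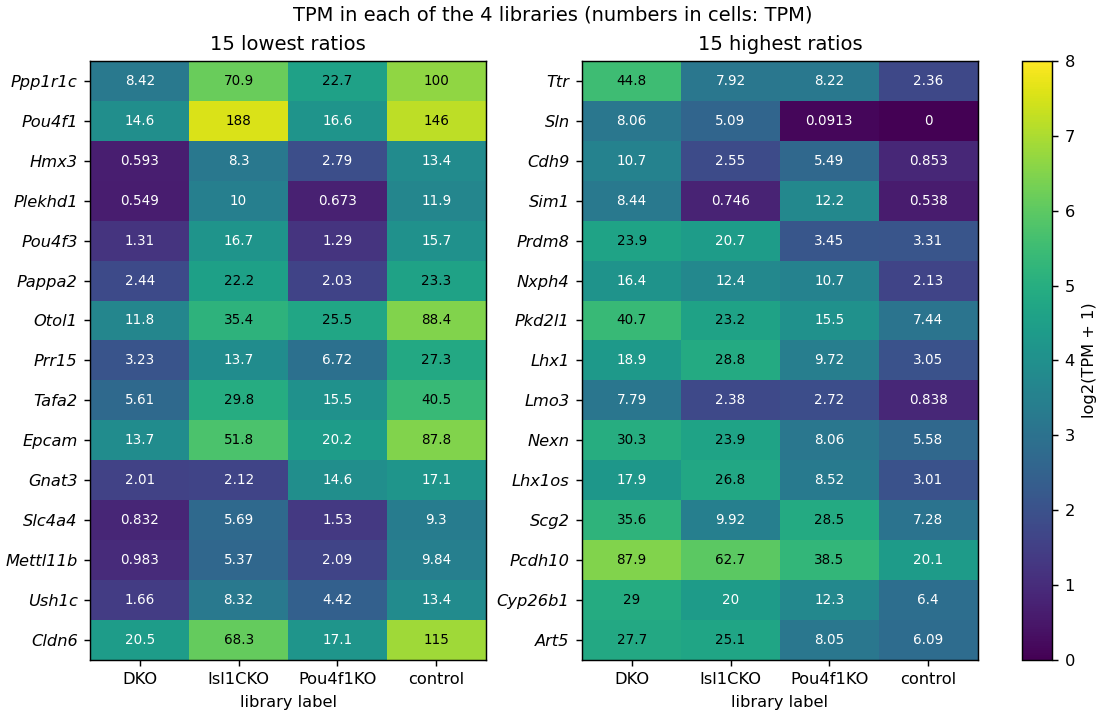
The 15 genes with the lowest (left) and the 15 with the highest (right) log2 ratios, DKO over control, among named genes at 5 TPM or more, with the library labels along the x axis; colour is log2(TPM + 1) and the number in each cell the TPM. The DKO column is dark on the left, as for Hmx3 at 0.593 TPM, and bright on the right, as for Pcdh10 at 87.9 TPM.

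Of 11 POU4 and LIM-homeodomain genes compared, which include Pou4f1 and Isl1, 5 were lower, 2 higher and 4 between. Over all compared genes 2.38% were lower and 1.03% higher. The median log2 ratio of the list was -0.39. Isl2, the paralog of Isl1 and a factor of postmitotic sensory and motor neurons, had 111 TPM in DKO, 241 in Isl1CKO, 154 in Pou4f1KO and 268 in control, lowest in DKO with a log2 ratio of -1.27. Pou4f2, known for retinal ganglion cells, had 0.0605 TPM in DKO and 2.99 TPM in control, so its call rests on low values. Lmx1a, a LIM-homeodomain factor of the otic epithelium and roof plate, had 7.97 TPM in DKO and 36.5 TPM in control. Lhx2 had 17.3 TPM in DKO and 4.03 TPM in control, so the LIM-homeodomain genes Lhx1 and Lhx2 were higher while Isl2 and Lmx1a were lower.

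Among 31 factors of otic neurogenesis, 2 were higher, 4 lower and 25 between. Over all compared genes 1.03% were higher and 2.38% lower. The median log2 ratio of the list was 0.11. Neurod1, the factor that otic neuroblasts need to leave the epithelium and survive, had 941 TPM in DKO and 641 TPM in control, a log2 ratio of 0.55 that is under 2-fold. Its relatives were past that size. Neurod2 had 30.4 TPM in DKO, 19.5 in Isl1CKO, 20.6 in Pou4f1KO and 6.82 in control, a log2 ratio of 2.01, and Neurod6 had 29.0 TPM in DKO and 10.2 TPM in control, a log2 ratio of 1.42. Neurod2 was lowest in control and highest in DKO.

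Neurog1, the factor that starts otic neurogenesis, was lower, with 6.74 TPM in DKO and 16.3 TPM in control. Sox2, the factor of otic progenitors and glia, had 31.6 TPM in DKO and 72.2 TPM in control, and the log2 ratio of its sum with the overlapping Sox2ot was -1.12. Gata3, a factor of spiral ganglion neurons and of otic epithelium, had 9.43 TPM in DKO, 7.39 in Isl1CKO, 49.9 in Pou4f1KO and 38.5 in control. It was low in the libraries labelled DKO and Isl1CKO and not in Pou4f1KO. Insm2, a zinc finger factor, was also low in the libraries labelled DKO and Isl1CKO, with 0.429 and 0.228 TPM, against 4.09 TPM in control. In Pou4f1KO it had 12.6 TPM, a log2 ratio over control of 1.42, against 0.36 for Gata3.

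Of 33 factors that mark sensory neuron subtypes, 4 were higher and 4 lower, against 1.03% and 2.38% of all compared genes. The median log2 ratio was 0.02. The lower ones were Hmx3, its neighbour Hmx2 with 1.12 TPM in DKO and 8.73 TPM in control, Prrxl1 with 0.292 and 4.23 TPM, and Runx1 with 1.06 and 6.08 TPM. Prrxl1 (DRG11) and Runx1 are known for nociceptive neurons of the dorsal root ganglion, and Hmx2 and Hmx3 stand on the otic epithelium list too. The higher ones were Prdm8, Lmo3, Bhlhe23 with 31.9 TPM in DKO and 8.06 TPM in control, and Cbfa2t3 with 14.7 and 6.27 TPM. Of 18 compared genes on a list of somatosensory ganglion genes, 8 were lower and 1 higher, against 2.38% and 1.03% of all compared genes. The median log2 ratio of the list was -0.23. Its lower members included Pou4f2, Isl2, Prph, Prrxl1, Runx1, Avil and Pvalb, several of them under 5 TPM in both libraries.

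Of 30 pan-neuronal genes, 1 was past 2-fold, a share near that of all compared genes, and the median log2 ratio was 0.10. Many of these genes are abundant, and of all genes with a mean of at least 100 TPM 0.198% were higher and 0.444% lower. The pan-neuronal gene past 2-fold was Prph, the intermediate filament peripherin of peripheral neurons, with 61.2 TPM in DKO, 112 in Isl1CKO, 119 in Pou4f1KO and 162 in control. It was highest in control and lowest in DKO, with a log2 ratio of -1.39. Celf4, an RNA-binding protein, and Nsg2, an endosomal protein of neurons, were just inside 2-fold on the other side, each with a log2 ratio of 0.98. Tubb3, the neuronal beta tubulin, had 2757 TPM in DKO and 2636 TPM in control.

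Neurotrophins and their receptors keep sensory neurons alive and guide their fibres. Of 25 compared genes of that group, 2 were lower and none higher, against 2.38% and 1.03% of all compared genes. The median log2 ratio was -0.12. Ntrk2, the receptor TrkB for BDNF, had 27.5 TPM in DKO, 55.2 in Isl1CKO, 57.2 in Pou4f1KO and 72.6 in control, a log2 ratio of -1.37. Ntf3, the ligand neurotrophin 3, had 3.84 TPM in DKO and 11.1 TPM in control. DKO was the lowest of the 4 libraries for both. Ntrk3, the receptor TrkC for neurotrophin 3, had 7.07 TPM in DKO and 14.7 TPM in control, a log2 ratio of -0.96 just under the size of a call. Its mean coverage was 2.48 in DKO and 5.12 in control, low for that TPM. Ntrk2 and Ntrk3 were both at their lowest in DKO. Bdnf had 16.9 TPM in DKO and 13.3 TPM in control.

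**Figure D3:**
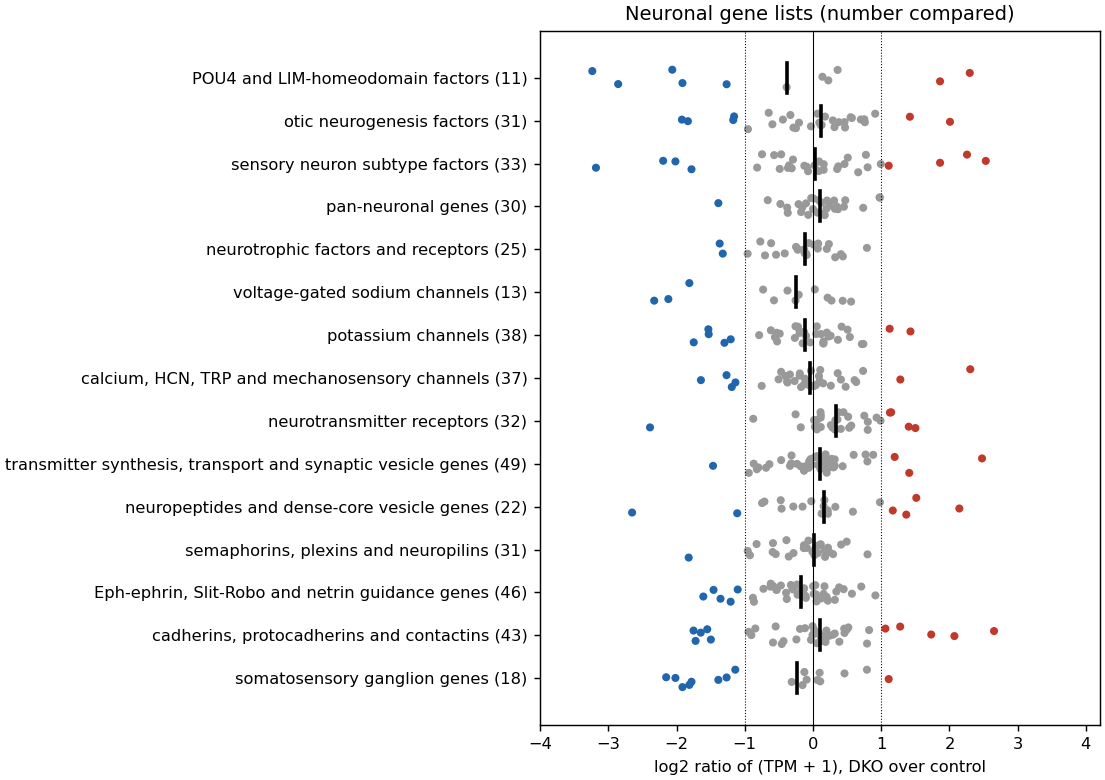
Log2 ratios of (TPM + 1), DKO over control (x axis), for the compared members of 15 neuronal gene lists (rows, with the number compared), 1 point a gene, spread vertically only to separate points; red and blue points are at least 2-fold higher and lower, and the black bar is the list median. Most medians lie near 0, with the lowest for POU4 and LIM-homeodomain factors at -0.39 and the highest for neurotransmitter receptors at 0.34.

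Voltage-gated sodium channels start the action potential. Of 13 compared sodium channel genes, 3 were lower and none higher, against 2.38% and 1.03% of all compared genes. The summed level was 214 TPM in DKO and 311 TPM in control. Scn9a, which encodes Nav1.7 of peripheral neurons, had 14.6 TPM in DKO, 47.3 in Isl1CKO, 41.0 in Pou4f1KO and 66.8 in control, a log2 ratio of -2.12. Scn10a, which encodes Nav1.8 of nociceptors, had 0.730 TPM in DKO and 5.07 TPM in control. For both genes the library labelled DKO was the lowest of the 4, and the libraries labelled Isl1CKO and Pou4f1KO lay between it and control. Scn3a and Scn8a, other pore subunits, had 21.4 and 19.7 TPM in DKO, against 25.8 and 16.8 TPM in control.

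Potassium channels set the resting potential and the firing pattern. Of 38 compared genes, 5 were lower and 2 higher, against 2.38% and 1.03% of all compared genes, with a median log2 ratio of -0.12. The lower ones included the neighbouring Kv1 genes, Kcna1 with 1.72 TPM in DKO and 8.14 TPM in control and Kcna6 with 19.9 TPM in DKO and 50.3 TPM in control. The others were Kcnc2 (Kv3.2), Kcnk1 (a two-pore leak channel) and Kcnj12 (an inward rectifier), with log2 ratios of -1.53, -1.53 and -1.21. The higher ones were Kcnd2 (Kv4.2, an A-type channel) with 5.09 TPM in DKO and 1.26 TPM in control, and Kcnn2 (a small-conductance calcium-activated channel) with 4.02 and 1.30 TPM.

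Of 37 calcium, HCN, TRP and mechanosensory channel genes, 4 were lower and 2 higher, against 2.38% and 1.03% of all compared genes. The median log2 ratio was -0.05. Asic1, an acid-sensing sodium channel, had 37.8 TPM in DKO, 99.7 in Isl1CKO, 66.7 in Pou4f1KO and 120 in control, lowest in DKO with a log2 ratio of -1.64. Cacna1e, the R-type calcium channel, had 18.2 TPM in DKO, 25.4 in Isl1CKO, 39.3 in Pou4f1KO and 41.3 in control. Cacna2d2, a calcium channel subunit, and Trpm3, a heat-gated channel, had log2 ratios of -1.27 and -1.19. Trpm3 had 7.56 TPM in DKO and 18.5 TPM in control, with a mean coverage of 1.23 and 3.22, low for that TPM. Asic4, a relative of Asic1, lay on the other side with 9.79 TPM in DKO and 3.44 TPM in control, as did Pkd2l1. P2rx3, the ATP receptor channel of sensory neurons and the most abundant of the group, had 313 TPM in DKO and 291 TPM in control.

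Neurotransmitter receptors leaned to the higher side. Of 32 compared genes, 4 were higher and 1 lower, against 1.03% and 2.38% of all compared genes. Of the 32 genes, 28 had a log2 ratio above 0, and the median was 0.34. Htr3a, the serotonin-gated channel subunit, had 97.1 TPM in DKO, 65.2 in Isl1CKO, 44.7 in Pou4f1KO and 33.6 in control, a log2 ratio of 1.5. It was graded, with DKO highest and control lowest. The nicotinic receptor subunit genes Chrna5 and Chrnb4 had 10.1 and 10.7 TPM in DKO, against 4.01 and 4.36 TPM in control. Chrna3, which lies in the same gene cluster, had 53 TPM in DKO and 29.9 TPM in control, a log2 ratio of 0.80. Glra2, a glycine receptor subunit, had 6.63 TPM in DKO and 1.88 TPM in control, with a mean coverage of 3.16 and 0.925, low for that TPM. The lower gene was Grm2, an inhibitory metabotropic glutamate receptor, with 3.22 TPM in DKO, 19.8 in Isl1CKO, 5.53 in Pou4f1KO and 21.1 in control, low in both libraries read as Pou4f1 knockouts.

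Among 49 genes of transmitter handling and the synaptic vesicle, 3 were higher and 1 lower, against 1.03% and 2.38% of all compared genes. The median log2 ratio was 0.11. Slc17a6 and Slc17a7 encode the vesicular glutamate transporters VGLUT2 and VGLUT1. Slc17a6 had 17.8 TPM in DKO, 51.6 in Isl1CKO, 20.6 in Pou4f1KO and 51.0 in control, a log2 ratio of -1.47. Slc17a7 had 40.1 TPM in DKO and 21.3 TPM in control, a log2 ratio of 0.88, so the 2 transporters lay on opposite sides of 0. Syt4, a synaptotagmin of dense-core vesicles, had 60.4 TPM in DKO, 17.8 in Isl1CKO, 77.5 in Pou4f1KO and 22.1 in control, high in both libraries read as Pou4f1 knockouts. Nrxn3, a presynaptic adhesion molecule, had 9.25 TPM in DKO and 3.47 TPM in control, and its family's ligand Nxph4 was described above. The mean coverage of Nrxn3 was 0.754 in DKO and 0.288 in control, low for that TPM. Core release genes such as Snap25, with 458 TPM in DKO and 403 TPM in control, were within 2-fold.

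Of 22 neuropeptide and dense-core vesicle genes, 4 were higher and 2 lower, against 1.03% and 2.38% of all compared genes. The median log2 ratio was 0.16. The higher ones beside Scg2 were the peptide precursors Penk (enkephalin), Npy (neuropeptide Y) and Cartpt. Penk had 34.6 TPM in DKO, 8.76 in Isl1CKO, 14.5 in Pou4f1KO and 11.5 in control, so that DKO stood alone. Npy had 15.7 TPM in DKO and 6.44 TPM in control, and Cartpt 4.195 TPM in DKO and 1.01 TPM in control. The lower ones were Tafa2 and Pcsk2, the prohormone convertase 2, with 15.2 TPM in DKO and 34.0 TPM in control.

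Calcium-binding proteins mark classes of neurons. Of 21 compared, 1 was higher and 1 lower, against 1.03% and 2.38% of all compared genes. The median log2 ratio was 0.07. Pvalb (parvalbumin) had 2.30 TPM in DKO, 12.9 in Isl1CKO, 0.535 in Pou4f1KO and 13.7 in control. Calb2 (calretinin) had 10.3 TPM in DKO, 11.2 in Isl1CKO, 6.09 in Pou4f1KO and 3.20 in control. Pvalb was low in the libraries read as Pou4f1 knockouts, whereas Calb2 was lowest in control.

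**Figure D4:**
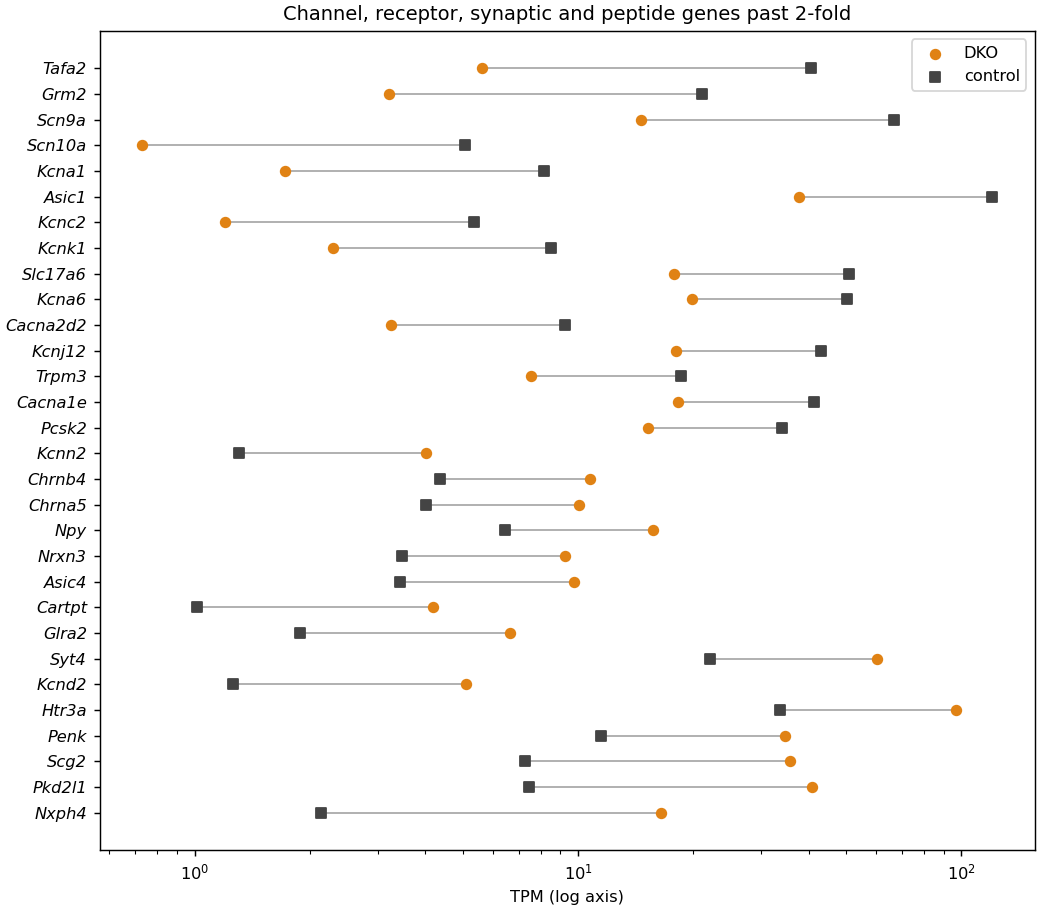
The figure shows 30 of the genes past 2-fold among channel, receptor, synaptic and peptide genes (rows), with orange circles for the library labelled DKO and dark squares for control on a log axis of TPM, 1 library each. The 15 upper genes are lower and the 15 at the bottom higher in DKO, among them Scn9a at 14.6 TPM in DKO and 66.8 TPM in control and Htr3a at 97.1 TPM in DKO and 33.6 TPM in control.

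Axon guidance receptors steer the fibres of the ganglion. Of 46 Eph, ephrin, Slit, Robo and netrin pathway genes, 5 were lower and none higher, against 2.38% and 1.03% of all compared genes. The median log2 ratio was -0.18. Epha5, a receptor for A-type ephrins, had 9.19 TPM in DKO, 16.9 in Isl1CKO, 28.004 in Pou4f1KO and 30.04 in control, a log2 ratio of -1.61. Unc5b, a netrin receptor, had 12.2 TPM in DKO, 24.1 in Isl1CKO, 17.0 in Pou4f1KO and 35.1 in control, a log2 ratio of -1.46. Robo3, a receptor of commissural axons, Epha1 and Dscam had log2 ratios of -1.36, -1.21 and -1.10, and each was under 6 TPM in both libraries. In all 5 genes DKO was below control. Of 31 semaphorins, plexins and neuropilins, 1 was lower and none higher, near the shares of all compared genes. The lower gene was Sema3e, a repulsive ligand, with 1.09 TPM in DKO and 6.39 TPM in control.

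Cadherins, protocadherins and contactins were split, with 5 of 43 higher and 5 lower, against 1.03% and 2.38% of all compared genes. The median log2 ratio was 0.10. The lower ones were Alcam, Cntn2 (the axonal adhesion molecule TAG-1), Cdh1, Cdh3 and Pcdh15 (a tip-link protein of hair cells). Cntn2 had 32.7 TPM in DKO, 77.0 in Isl1CKO, 64.9 in Pou4f1KO and 97.8 in control, lowest in DKO. Cdh1 and Cdh3, the classical cadherins of epithelia, had 2.72 and 10.5 TPM in DKO, against 11.2 and 37.7 TPM in control. The higher ones were the cadherins Cdh7, Cdh9 and Cdh10, the protocadherin Pcdh10 and the adhesion molecule Ncam2. Cdh10, the neighbour of Cdh9 on chromosome 15, had 15.1 TPM in DKO, 6.98 in Isl1CKO, 11.4 in Pou4f1KO and 3.85 in control. Its mean coverage in the deposited tables was 3.40 in DKO and 0.882 in control, low for that TPM. Ncam2 had 38.3 TPM in DKO and 17.8 TPM in control, with a log2 ratio of 1.06 that was 0.99 once levels were scaled to equal pan-neuronal sums.

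In absolute level, the largest drop was that of Nefm, the medium neurofilament subunit, with 2733 TPM in DKO, 3456 in Isl1CKO, 3543 in Pou4f1KO and 3553 in control. Its log2 ratio was -0.38. Sncg, gamma-synuclein of peripheral neurons, had 404 TPM in DKO, 941 in Isl1CKO, 595 in Pou4f1KO and 995 in control, a log2 ratio of -1.30. Alcam, an adhesion molecule of axons, had 149 TPM in DKO, 287 in Isl1CKO, 302 in Pou4f1KO and 423 in control, a log2 ratio of -1.50. DKO was lowest in each of these 3 genes. Gap43, the growth cone protein, had 1291 TPM in DKO and 1669 TPM in control. The remaining large drops were in Rps2, Hsp90ab1, Mdk and Hbb-bh1, each with a log2 ratio between -0.55 and -0.13.

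The largest increase in level was that of Stmn1, a tubulin-binding protein of growing neurons, with 7549 TPM in DKO, 7002 in Isl1CKO, 6348 in Pou4f1KO and 5438 in control. Its log2 ratio was 0.47, and control was the lowest of the 4 libraries. Cadm1, an immunoglobulin adhesion molecule, had 1063 TPM in DKO and 679 TPM in control, and Nrep, a small neuronal protein, had 1401 TPM in DKO and 959 TPM in control. Tubb2b, Tuba1a, Eef1a1, Nnat and Ftl1 had log2 ratios of 0.07 to 0.25. None of these 8 genes reached 2-fold.

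Past 2-fold, 9 genes with a mean of at least 100 TPM were lower and 4 higher. The lower ones beside Rpl26, Alcam, Prph, Sncg and Isl2 were Mreg (melanoregulin), Kcnmb2 (a subunit of the BK potassium channel), Adam11 and Pcbp3, which are named because the count is small and were chosen after their values were seen. Mreg had 57.6 TPM in DKO, 194 in Isl1CKO, 94.4 in Pou4f1KO and 221 in control. The higher ones beside Gm15772 were Actc1 (cardiac alpha-actin), Actn3 (an alpha-actinin of fast muscle) and its neighbour Ctsf (cathepsin F). Actc1 had 206 TPM in DKO, 191 in Isl1CKO, 73.1 in Pou4f1KO and 53.9 in control, and its log2 ratio was 1.91. It was high in the libraries labelled DKO and Isl1CKO.

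Secreted signals pattern the ear and the ganglion. Of 22 FGF pathway genes, 3 were lower and none higher, against 2.38% and 1.03% of all compared genes. Of the 22 genes, 18 had a log2 ratio below 0, and the median was -0.23. The 3 were the ligands Fgf3, with 5.49 TPM in DKO and 13.1 TPM in control, and Fgf20, with 0.723 and 3.19 TPM, and the feedback inhibitor Spry1, with 4.998 and 11.7 TPM. Fgf10, a ligand made by otic neuroblasts, had 57.5 TPM in DKO, 46.7 in Isl1CKO, 144 in Pou4f1KO and 96.5 in control, a log2 ratio of -0.74.

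Of 43 WNT pathway genes, 4 were higher and 3 lower, against 1.03% and 2.38% of all compared genes. The median log2 ratio was -0.11. The ligand Wnt7b had 3.15 TPM in DKO, 7.08 in Isl1CKO, 7.69 in Pou4f1KO and 16.3 in control. The corepressor genes Tle2 and Tle6, neighbours on chromosome 10, were higher. Tle2 had 48.1 TPM in DKO, 47.6 in Isl1CKO, 15.3 in Pou4f1KO and 13.97 in control. Tle6 had 15.3 TPM in DKO, 12.8 in Isl1CKO, 3.10 in Pou4f1KO and 3.33 in control. Both were high in the libraries labelled DKO and Isl1CKO and near control in Pou4f1KO. The receptor Fzd10 had 58.0 TPM in DKO and 24.0 TPM in control.

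Of 37 BMP and TGF-beta pathway genes, 4 were lower and 2 higher, against 2.38% and 1.03% of all compared genes. The lower ones were the ligands Bmp3 and Bmp7, the antagonist Chrdl1 and the matrix protein Smoc2, with log2 ratios from -1.60 for Bmp3 to -1.02 for Bmp7. The ligand Bmp5 was higher, with 24.5 TPM in DKO and 9.63 TPM in control. The antagonist Grem1 had 2.27 TPM in DKO and 0.596 TPM in control, and its log2 ratio of 1.04 was 0.98 once scaled to equal pan-neuronal sums.

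Of 24 retinoic acid and thyroid hormone genes compared, 3 were lower, 2 higher and 19 between. Over all compared genes 2.38% were lower and 1.03% higher. The median log2 ratio of the list was -0.15. Aldh1a3 and Aldh1a1, which make retinoic acid, had 5.26 and 0.104 TPM in DKO, against 17.6 and 1.74 TPM in control. Cyp26b1, which breaks it down, had 29.0 TPM in DKO, 19.99 in Isl1CKO, 12.3 in Pou4f1KO and 6.40 in control. Dio3, which inactivates thyroid hormone, had 3.46 TPM in DKO and 18.5 TPM in control, and the carrier Ttr was the highest ratio of all named genes. Among 18 genes of the IGF axis, Pappa2 and Igfbp7 were lower, while Irs2, an adaptor of the insulin receptors, had 90.8 TPM in DKO and 49.8 TPM in control, a log2 ratio of 0.85. Among 26 Notch pathway genes, Lfng, a glycosyltransferase that modifies Notch, was lower, with 7.38 TPM in DKO and 20.5 TPM in control.

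Lists of cell state genes held few calls, as did all compared genes, of which 1.03% were higher and 2.38% lower. Of 24 p53 target genes, none was past 2-fold, 16 had a log2 ratio above 0, and the largest were Gadd45a with 274 TPM in DKO and 172 TPM in control and Cdkn1a with 113 and 71.5 TPM. Of 32 BCL2 family and cell death genes, 1 was lower and none higher. It was Hrk, a BH3-only death gene of neurons deprived of trophic factor, with 3.70 TPM in DKO and 9.42 TPM in control. Bax had 293 TPM in DKO and 264 TPM in control. No cell cycle gene of 39 was past 2-fold, but 34 had a log2 ratio below 0 and the median was -0.20, with Mki67 at 84.7 TPM in DKO and 123 TPM in control. Of 30 glycolysis and hypoxia genes, none was past 2-fold, 24 were above 0 and the median was 0.25. Of 22 immediate-early and stress genes, 1 was higher, the orphan receptor Nr4a2 with 25.8 TPM in DKO and 9.10 TPM in control. Among 10 genes of axon regeneration, Npy was higher and Tnfrsf12a, a receptor of the TNF family, was lower, with 4.41 TPM in DKO and 11.3 TPM in control. None of 46 ribosomal protein genes and none of 34 oxidative phosphorylation genes on the lists was past 2-fold, with medians of -0.03 and -0.04.

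Among the marker lists of other cells, those of otic epithelium and of surface ectoderm and epithelium had the lowest medians. Of 36 compared genes on a list of otic epithelium, 20 were lower and 1 higher, against 2.38% and 1.03% of all compared genes, the median log2 ratio was -1.42 and the summed level was 1194 TPM in DKO and 1935 TPM in control. The list has 38 genes, and 1 of the compared genes passed the filter by its DKO value alone and 3 by their control value alone. Oc90, the main protein of otoconia, had 35.02 TPM in DKO, 115 in Isl1CKO, 12.8 in Pou4f1KO and 128 in control. Spp1 (osteopontin) had 16.5 TPM in DKO, 52.7 in Isl1CKO, 30.5 in Pou4f1KO and 69.2 in control, and Pax2, a factor of the otic vesicle, had 4.48 TPM in DKO, 10.5 in Isl1CKO, 5.82 in Pou4f1KO and 14.4 in control. The libraries labelled DKO and Pou4f1KO were the low pair for all 3. The exception was Tbx1, a factor of otic epithelium and mesoderm, with 33.8 TPM in DKO and 11.7 TPM in control.

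Of 20 compared genes on a list of surface ectoderm and epithelium, 14 were lower and none higher, against 2.38% and 1.03% of all compared genes. Of the 20, 3 had passed the filter by their control value alone. The median was -1.52 and the summed level was 105 TPM in DKO and 444 TPM in control. The claudins Cldn3, Cldn4, Cldn6 and Cldn7 and the keratins Krt8, Krt18 and Krt19 were among the lower genes. Krt8 had 8.58 TPM in DKO, 22.8 in Isl1CKO, 5.66 in Pou4f1KO and 34.9 in control. The defining keratinocyte genes Krt5, Krt14 and Trp63 were each under 1 TPM in DKO and in control, so the list was carried by genes that epithelia share. Of the 352 lower genes, 30 stand on these 2 lists, including Hmx2, Hmx3, Gata3, Lmx1a, Lfng, Otol1, Epcam, Cldn6 and Cdh1 named above, and of the 152 higher genes 1 does. The part of epithelial tissue in the differences of other genes was not tested. Without the genes of all lists of other cells, a count added after the data were seen, 138 genes were higher and 312 lower.

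Of 26 neural tube and hindbrain factors, 5 were higher and 5 lower, against 1.03% and 2.38% of all compared genes. The summed level was 569 TPM in DKO and 658 TPM in control. The higher ones were Lhx1, Lhx1os, Lhx2, Sim1 and Nkx6-1, and the lower ones Irx3, Irx5, Pax2, Shh and Skor2. Defining neural tube factors such as Pax7, Olig2, Ptf1a and Atoh1 were under 1 TPM in both libraries. Of 17 choroid plexus and roof plate genes, 3 were higher, and these were Ttr, Clic6 and Kcne2, with 8.43 and 2.35 TPM for the last 2 in DKO, against 3.46 and 0.265 TPM in control. Folr1, another choroid plexus gene, had 0.405 TPM in DKO and was listed at 0 in control. Lmx1a, Krt18 and Wfdc2 of the same list were lower. The part of such tissue in the level of Ttr was not tested.

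Of 21 cartilage and muscle genes, Actc1, Nexn and Sln were higher and Cnmd, a cartilage protein, was lower. The muscle-defining factors Myod1 and Myog were under 1 TPM in DKO and in control, and the muscle filament gene Des had 1.49 TPM in DKO and 1.92 TPM in control. Myh3, a muscle myosin heavy chain on the same list, had 2.74 TPM in DKO, 2.48 in Isl1CKO, 1.14 in Pou4f1KO and 1.08 in control. Its log2 ratio was 0.85, under 2-fold, and it was higher in the libraries labelled DKO and Isl1CKO. The part of muscle tissue in these levels was not tested. Of 14 visceral and motor neuron factors, Isl2 and Tbx2 were lower and Chrnb4 was higher. Tbx2, a T-box factor also made in the otic vesicle, had 16.3 TPM in DKO, 46.7 in Isl1CKO, 29.6 in Pou4f1KO and 83.4 in control, highest in control and lowest in DKO.

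Lists of cells that accompany the neurons are short, and of all compared genes 1.03% were higher and 2.38% lower. A list without a call is thus near that background. No gene was past 2-fold among 25 genes of glia and neural crest, 22 of endothelium and pericytes, 18 of erythroid cells, 16 of macrophages and immune cells and 3 Hox genes. Of the 22 endothelium and pericyte genes, 20 had a log2 ratio above 0, the median was 0.23 and the summed level was 247 TPM in DKO and 213 TPM in control. The summed level of the glial list was 1665 TPM in DKO and 1646 TPM in control, with Sox10 at 147 TPM in DKO and 160 TPM in control. Of 28 mesenchyme genes, Six2 and Msx2 were lower and Tbx18 was higher, 21 had a log2 ratio above 0, and the median was 0.25.

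**Figure D5:**
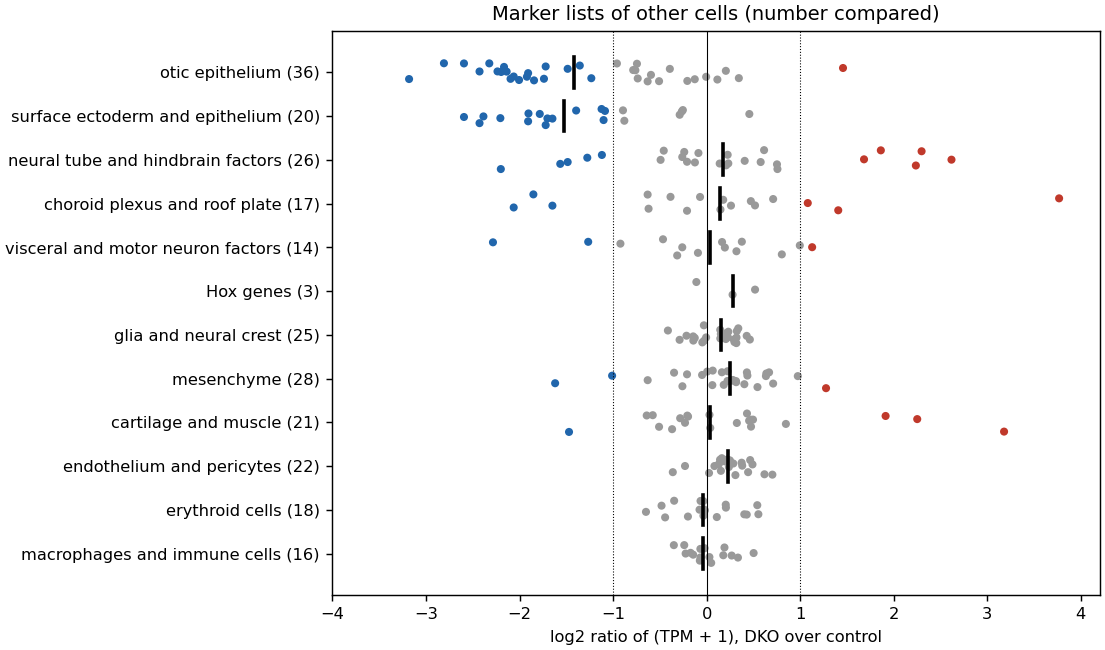
Log2 ratios of (TPM + 1), DKO over control (x axis), for the compared members of 12 marker lists of cells other than ganglion neurons (rows, with the number compared), 1 point a gene; red and blue points are at least 2-fold higher and lower, and the black bar is the list median. The 2 epithelial lists lie to the left, with medians of -1.42 and -1.52, while the other 10 medians lie between -0.04 and 0.28.

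The promoters of the called genes were read in the RefSeq promoter table of build GRCm38.p6 for letters that these factor families are known to bind. A promoter was used where its start lay within 1000 bases of the deposited 5′ end of the gene, which gave 11137 genes, 92 of them higher and 236 lower in the library labelled DKO. The window ran from 250 bases before to 50 bases after the start, and both strands were searched. The homeodomain palindrome TAATTA was in 17 lower promoters (7.20%), 1 higher promoter (1.09%) and 260 of all (2.33%). The POU4 motif ATAATTAAT, which holds the palindrome, was in 1 lower promoter (0.424%), no higher promoter and 7 of all (0.0629%). The LIM-homeodomain motif CTAATG was in 14 lower (5.93%), 6 higher (6.52%) and 518 of all promoters (4.65%). The median GC content was 61.5% in lower, 58.7% in higher and 61.3% in all promoters, and 50.7% in those that hold TAATTA. A match is a description of letters and not of a bound site.

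The lower gene whose promoter held the POU4 motif was D130009I18Rik, a transcript that the tables name only by a clone identifier. It starts 171 kb from the start of Pou4f1, a minus-strand gene of chromosome 14, with 1 compared gene between them. D130009I18Rik runs from 104639144 to 104966783 on the plus strand. It had 0.764 TPM in DKO, 16.4 in Isl1CKO, 0.490 in Pou4f1KO and 12.1 in control, a log2 ratio of -2.89. It was low in both libraries read as Pou4f1 knockouts, as was Pou4f1 itself. Other lower genes with TAATTA included Emx2, a homeobox factor, with 1.19 TPM in DKO and 7.997 TPM in control, Tmem163, a zinc transporter, with 4.92 and 21.8 TPM, and Epha5, Robo3, Neurog1 and Hrk.

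The 250 bases before the start are shown for the gene with the POU4 motif and for 3 genes of guidance, neurogenesis and death described above, 5′ to 3′ on the strand of the gene, with the motif letters in capitals. They are chr14:104638894-104639143 (plus strand) for D130009I18Rik, chr5:84417383-84417632 (minus strand) for Epha5, chr13:56252181-56252430 (minus strand) for Neurog1 and chr5:118169514-118169763 (plus strand) for Hrk.
D130009I18Rik: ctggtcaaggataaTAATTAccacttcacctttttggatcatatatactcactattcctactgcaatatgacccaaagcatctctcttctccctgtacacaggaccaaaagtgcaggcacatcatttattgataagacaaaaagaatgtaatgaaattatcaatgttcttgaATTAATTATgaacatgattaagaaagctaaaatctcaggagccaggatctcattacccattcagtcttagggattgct
Epha5: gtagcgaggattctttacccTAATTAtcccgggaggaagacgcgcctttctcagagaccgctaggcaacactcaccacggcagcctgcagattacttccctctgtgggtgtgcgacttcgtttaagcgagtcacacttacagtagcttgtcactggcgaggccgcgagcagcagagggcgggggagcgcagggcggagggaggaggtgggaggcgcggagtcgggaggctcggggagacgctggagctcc
Neurog1: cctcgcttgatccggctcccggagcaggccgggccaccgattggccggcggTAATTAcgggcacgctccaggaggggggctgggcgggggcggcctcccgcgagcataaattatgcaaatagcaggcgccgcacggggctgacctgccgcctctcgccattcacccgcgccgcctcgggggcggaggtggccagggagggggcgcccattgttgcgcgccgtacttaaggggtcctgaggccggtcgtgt
Hrk: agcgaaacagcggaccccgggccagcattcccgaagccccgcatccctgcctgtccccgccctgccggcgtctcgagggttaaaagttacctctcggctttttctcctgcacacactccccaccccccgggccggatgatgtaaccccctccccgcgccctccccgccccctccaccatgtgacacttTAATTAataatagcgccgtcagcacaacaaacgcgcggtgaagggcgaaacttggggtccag
The POU4 motif of D130009I18Rik reads ATTAATTAT on this strand and begins 78 bases before the start, and a further TAATTA begins 236 bases before it. The palindrome begins 230 bases before the start of Epha5, 199 bases before that of Neurog1 and 62 bases before that of Hrk. These 4 genes had log2 ratios of -2.89, -1.61, -1.16 and -1.15.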

How the data were processed

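Frozen dissected ganglia gave total RNA by Trizol, and the library kit kept the strand, per the labels' protocols. Trimmomatic, FastQC, HISAT2, SAMtools and StringTie are named with build mm10 in the submitters' processing notes, without settings, and neither those notes nor the labels, as used here, name the gene annotation. TPM, as deposited by the authors, sums to 1000000 in each library. FPKM, fragments scaled for length and depth, was deposited by the authors beside it and was used as an alternative. Coverage, the mean read depth over a gene, was deposited by the authors without scaling between libraries, per the file headers. Aligned gigabases were taken as coverage divided by FPKM, a quotient that was constant within 0.001 for 55.9% to 56.2% of genes.

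Rows that share a symbol were summed (179 symbols). With 1 library a side no test was run, and depth limits only the counting part of the error. Ratios of low genes are the least precise, and no interval can be given without read counts. The script was checked on simulated tables. Named genes were Isl1 and Pou4f1, the 15 lowest and 15 highest ratios at 5 TPM or more with an ordinary symbol on 1 row, the 8 largest TPM differences in each direction, and up to 6 members of each of 45 lists, or any member of lists with 15 or fewer measured. Genes named outside this rule were chosen after their values were seen, and so were the 4 promoters shown. Results of a few genes are not reported here. The comparison and the lists were chosen with earlier results of these data known. Alternatives were other pseudocounts, filters, units, scalings and row handling. Computation used Python 3.11.15, pandas 2.3.3, numpy 2.4.6 and matplotlib 3.10.9.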

Additional observations from a re-analysis of the deposited data

How the results depend on the processing

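No paired analysis was possible because each genotype was 1 library. The counts of 152 higher and 352 lower genes stayed within 1.5 times with no filter, with median-of-ratios scaling, with equal pan-neuronal sums (138 and 379), with abundant gene classes left out of the total, with rows kept apart and without the genes of the other-cell lists. They were 319 and 580 with a pseudocount of 0.1, 51 and 127 with a pseudocount of 5, 75 and 186 with FPKM, and 88 (higher) and 249 (lower) with a filter of 5 TPM. A larger pseudocount pulls low genes towards 0, and FPKM values are smaller than TPM values. Equal pan-neuronal sums moved the median of all genes to -0.08. Among 314 named genes, 68 ratios moved by more than 1.5 times with a pseudocount of 5, 36 with a pseudocount of 0.1 and, of those compared there, 21 with FPKM, and no called ratio changed sign. Some list medians changed sign, and not all of them were near 0 in the main setting. Their main medians were 0.28 for Hox genes, 0.17 for neural tube factors, 0.15 for choroid plexus genes and -0.12 for regeneration genes. For transmitter and synaptic genes the main median was 0.11, and for WNT genes -0.11. With no filter the medians were -0.0184 for transmitter and synaptic genes, 0.00763 for WNT genes, -0.0681 for neural tube factors and -0.0219 for Hox genes. With FPKM they were 0.0270 for regeneration genes, -0.0712 for neural tube factors and -0.0946 for choroid plexus genes, and with a filter of 5 TPM the regeneration median was 0.0125. Genes of a few TPM carry the least certain ratios.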

Other observations

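Some called genes stood beside another called gene on the chromosome. Among 13264 pairs of neighbouring compared genes that do not overlap, both were lower in 30 pairs, both higher in 10, and 1 was higher and 1 lower in 4. The pairs of lower genes held members of 1 family in several places. They were the sodium channel genes Scn9a and Scn7a on chromosome 2, the potassium channel genes Kcna1 and Kcna6, the cadherins Cdh3 and Cdh1, the keratins Krt8 and Krt18, the claudin pairs Cldn6 and Cldn9, Cldn4 and Cldn3 and Cldn24 and Cldn22, and the homeobox genes Hmx3 and Hmx2. The Pou3f3 locus on chromosome 1, which encodes another POU factor, held 4 lower genes in a row, Pantr1, Pou3f3, 2900092D14Rik and Pantr2, with log2 ratios from -1.72 to -1.26. Pairs of higher genes included Tle2 and Tle6, Cdh9 and Cdh10, Lhx1 and Lhx1os, and Actn3 and Ctsf. Read assignment between neighbours was not tested.

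Beside Actc1, Nexn, Sln and Actn3, 2 further genes with a role in muscle, chosen after their values were seen, were past 2-fold. Atp2a1, the calcium pump that sarcolipin regulates, had 33.5 TPM in DKO, 29.1 in Isl1CKO, 16.1 in Pou4f1KO and 11.9 in control. Chrng, the fetal subunit of the muscle acetylcholine receptor, had 28.1 TPM in DKO, 24.3 in Isl1CKO, 13.2 in Pou4f1KO and 10.1 in control. Both were highest in the libraries labelled DKO and Isl1CKO. The related Chrna1 and Chrnd, which encode the alpha and delta subunits of the same receptor, and Ckm, the muscle creatine kinase, were under 1 TPM in DKO and in control.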
